A study of Mus musculus with 6 samples.

Results

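The enzymes that write and erase methyl marks on histones were examined in CD4+ T cells, the lymphocytes that include helper and regulatory T cells. Genes were taken by name from the families Kdm, Kmt, Setd, Setdb, Smyd, Prmt, Nsd, Ehmt, Suv39h, Ezh, Dot1l, Ash1l and Carm1, leaving out the Y-linked Kdm5d, and each gene was represented by its brightest probe set. The rule found 58 genes of the 19937 that have a probe set naming 1 gene: 32 lysine methyltransferases and related SET or MYND domain proteins, 9 arginine methyltransferases and 17 demethylases. Ash1l and Suv39h1 fall under the same rule by name and were not analysed here. RNA was labelled with biotin and hybridised to Affymetrix arrays. The 6 arrays comprise 3 of CBS-KO cells, from mice deficient in cystathionine beta-synthase, and 3 of WT cells, all from C57BL/6 mice aged 6 weeks. The labels call the 3 arrays of a group biological replicates. They give neither the sex of the mice, nor the kind of knockout allele, nor the way the cells were isolated, nor their purity.

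Histone lysine methyltransferases carry a SET domain, except Dot1l, and place up to 3 methyl groups on a lysine. Arginine methyltransferases of the Prmt family, to which Carm1 belongs, act on histones and on many other proteins. Both kinds take the methyl group from S-adenosylmethionine, whose use leaves homocysteine, and cystathionine beta-synthase draws homocysteine out of this methionine cycle. Lysine marks are removed by FAD-dependent enzymes of the Kdm1 type and by JmjC domain enzymes, which need iron, oxygen and 2-oxoglutarate. In T cells these marks are known for keeping lineage genes silent or active, as Ezh2 does in helper T cell differentiation. The arrays measure the RNA of the enzymes, not their activity or the marks.

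Members that differed in opposite directions are shown here by the 250 bases upstream of the first start listed for each in RefSeq (GRCm38.p6, read along the gene's strand). For Smyd2 (gene end 189922495), Kdm3a (gene end 71632990) and Kmt5b (gene start 3767362) the window reaches into the RefSeq span of the gene. Those 3 windows are therefore not wholly upstream of the gene. Kmt5a and Smyd2 were called higher in CBS-KO cells, and Kdm3a and Kmt5b lower. Capitals mark the motif CCAAT, the box bound by NF-Y, and the search covered both strands.
Kmt5a (chr5:124439680-124439929, plus strand): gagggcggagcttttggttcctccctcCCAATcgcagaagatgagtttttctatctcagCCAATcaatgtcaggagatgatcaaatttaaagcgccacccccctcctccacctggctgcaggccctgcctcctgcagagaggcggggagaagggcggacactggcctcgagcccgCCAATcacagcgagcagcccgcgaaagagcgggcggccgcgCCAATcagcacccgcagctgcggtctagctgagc
Smyd2 (chr1:189922292-189922541, minus strand): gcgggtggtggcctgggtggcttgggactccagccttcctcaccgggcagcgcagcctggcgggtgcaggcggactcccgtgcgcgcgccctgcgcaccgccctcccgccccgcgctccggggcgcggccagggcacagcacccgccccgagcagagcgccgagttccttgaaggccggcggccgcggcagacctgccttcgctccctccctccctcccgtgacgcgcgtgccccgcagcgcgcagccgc
Kdm3a (chr6:71632918-71633167, minus strand): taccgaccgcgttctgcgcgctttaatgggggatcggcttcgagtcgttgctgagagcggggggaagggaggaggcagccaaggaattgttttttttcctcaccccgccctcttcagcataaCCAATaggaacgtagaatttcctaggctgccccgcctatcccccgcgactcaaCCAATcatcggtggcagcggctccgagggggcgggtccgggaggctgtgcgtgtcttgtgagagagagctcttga
Kmt5b (chr19:3767171-3767420, plus strand): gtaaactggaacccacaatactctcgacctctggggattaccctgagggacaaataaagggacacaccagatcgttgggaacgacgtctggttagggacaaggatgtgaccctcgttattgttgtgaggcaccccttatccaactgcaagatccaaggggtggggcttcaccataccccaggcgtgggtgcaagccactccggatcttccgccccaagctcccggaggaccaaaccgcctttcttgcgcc
The window of Kmt5a held 4 CCAAT matches and that of Kdm3a held 2, while the windows of Smyd2 and Kmt5b held none. Windows were also given for Kdm4c and Kdm7a, both called lower, and held no CCAAT. Of the called members with a window, 1 of 2 higher and 1 of 4 lower ones thus held the motif. A window was given for 45 of the 58 members, of which 20 (44.4%) held CCAAT, against 34.5% of 27025 windows of all genes. Of 2 spellings of the E2F site, TTTCCCGC stood in 1 member window, that of Kmt5c, and in 0.929% of all windows, and TTTGGCGC stood in 0 member windows and in 0.437% of all. TATAAA, the TATA box, stood in 2 member windows (4.44%), against 13% of all windows. No motif searched contains another, though neighbouring matches may share bases at their ends. Median GC content was 60.4% in member windows and 52.0% in all windows.

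Values were log2(intensity + 16), and differences are CBS-KO minus WT on that scale, where 1 is a doubling of intensity plus 16. Array medians lay between 7.37 and 7.55. The probe set of the targeted gene Cbs did not separate the groups (7.25, 7.63 and 7.35 in CBS-KO, against 7.37, 7.48 and 7.19 in WT; limma adjusted p = 0.801), and the part of the gene it covers is not given, so it does not check the labels. CD4 T cell markers were present on all arrays, and 4 of 10 tested were called lower in CBS-KO. All 10 lay wholly below the WT arrays (differences from -1.12 to -0.46, median -0.59), where 22.4% of all genes did. Of markers of other cells, 12 of 14 neutrophil, 11 of 11 monocyte and macrophage and 10 of 11 erythroid genes were called higher, as were 8 of 18 proliferation genes. Over all genes 6.62% were called higher. Some of these markers, such as Mmp8 and Cxcr2 (WT means 5.85 and 6.07), passed the filter on low values (a mean above 6.99) only through their CBS-KO values. The part of these other cells in the differences reported here was not tested. In such bulk samples fewer cells of a type and less RNA per cell cannot be told apart. CBS-KO 1 and 2 had Y-linked signal and little Xist, the noncoding RNA of X inactivation, while CBS-KO 3 and the WT arrays had Xist and no Y-linked signal. Genotype and Y-linked signal are thus partly confounded in all differences reported here.

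Of the 58 genes, 54 passed the filter on low values (a mean above 6.99) and were tested with limma across all 20856 probe sets that passed it. At a Benjamini-Hochberg adjusted p under 0.05, 9 of the 54 (16.7%) were called, 3 higher and 6 lower in CBS-KO cells. Smyd2, Kmt5a and Carm1 were higher, and Kmt5b, Kdm3a, Kdm5a, Kdm7a, Kdm4c and Nsd1 were lower. Over all tested probe sets 9.57% were called, 5.09% higher and 4.47% lower, and over genes with 1 probe set each 11.1% were called (6.62% higher and 4.45% lower). The 3 members called higher (5.56%) thus lay near the share among all genes, and the 6 called lower (11.1%) above it, with no test of that gap. The median difference was -0.20 over the 54 members and -0.01 over 12776 genes. Groups did not overlap for 36 members (66.7%), against 41.2% of all genes; 8 members lay wholly higher (14.8%, against 18.8%) and 28 wholly lower (51.9%, against 22.4%). At an unadjusted p under 0.05 there were 27 members (50%), against 33.4% of all genes. Differences were small: 1 member differed by 1 or more, and 21 differed by less than 0.25.

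These calls depended on the settings and on single arrays. Of 19 alternative settings (20 for Kdm7a), the call was lost in 12 for Kdm7a, 11 for Nsd1, 9 for Kdm4c and 8 for Carm1. It was lost in 7 for Smyd2, 6 for Kmt5a, 6 for Kdm5a, 5 for Kmt5b and 3 for Kdm3a. Without WT 1, WT 2 or CBS-KO 1, 0 of the 54 members were called, and without WT 3 only Kdm3a was (adjusted p = 0.0482). At an unadjusted p under 0.05 there were 17, 18 and 18 members without those 3 arrays, against 27 with all 6 arrays. The share of all genes at that level was not computed for these runs. With all 6 arrays it was 33.4%. Over all probe sets 93, 73 and 166 were called without those 3 arrays and 672 without WT 3. Without CBS-KO 3, 1 member was called higher and 4 lower, where 6.6% of all tested probe sets were called. Of the 9 members, 4 stayed called, namely Kmt5b, Kdm3a, Kdm5a and Kmt5a. The remaining call was Kdm6a, which missed the threshold with all 6 arrays. Leaving out CBS-KO 2 had the opposite effect, with 11 of the 54 members called higher and 17 lower. In that run 6427 of all tested probe sets were called (30.8%). CBS-KO arrays spread more than WT arrays, with a median SD over members of 0.20 in CBS-KO and 0.07 in WT. Over all genes the median SD was likewise 0.20 in CBS-KO and 0.09 in WT.

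**Figure D1:**
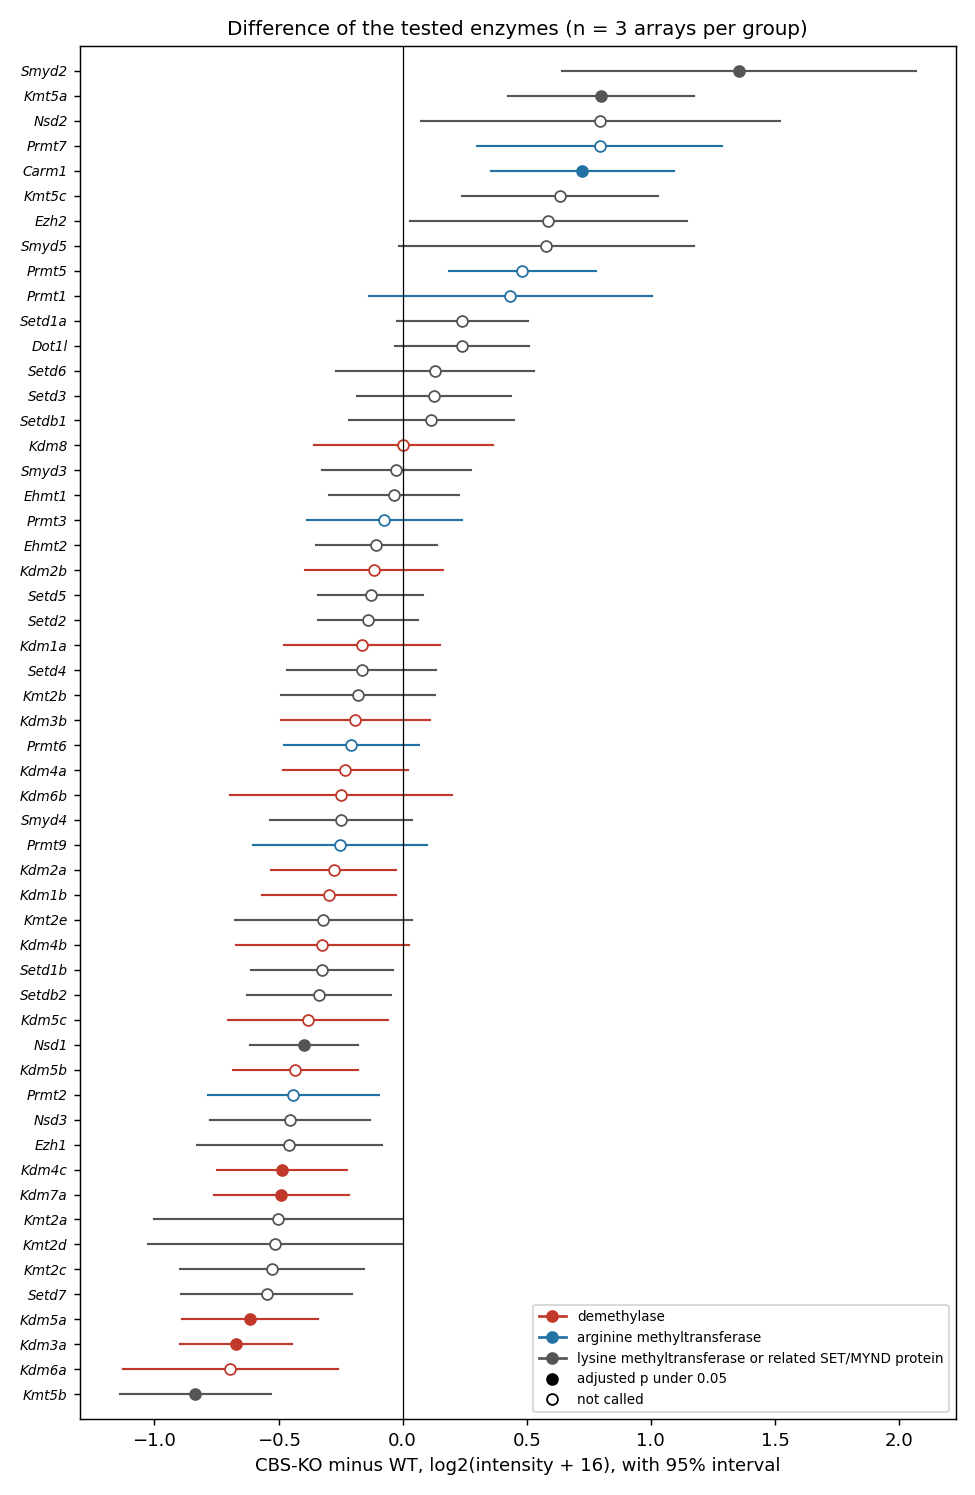
Difference in log2(intensity + 16), CBS-KO minus WT, for each of the 54 tested members with its 95% confidence interval, in order of the difference. Colours mark demethylases, arginine methyltransferases and lysine methyltransferases, and filled points mark an adjusted p under 0.05. The 16 demethylases lie between -0.69 and 0.00298, and Smyd2 lies farthest to the right at 1.35.

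Demethylases had 4 of 16 tested members called lower, 0 called higher, and 15 of 16 with a negative difference (median -0.31). Over all genes 4.45% were called lower, and 6647 of 12776 had a negative difference. The CBS-KO arrays lay wholly below the WT arrays for 11 of them and wholly above for 0, where 22.4% of all genes lay wholly below. At an unadjusted p under 0.05, 0 demethylases were higher and 9 lower, against 17.1% of all genes higher and 16.3% lower. The 16 values ran from -0.69 (Kdm6a) to 0.00298 (Kdm8, 95% confidence interval -0.36 to 0.36). In every alternative setting tried, 14 to 16 of the 16 were negative and none was called higher, while the number called lower ran from 0 to 14.

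Among the JmjC demethylases of H3K9, which remove a mark of silent chromatin, 3 of 6 tested were lower, and all 6 differences were negative (median -0.40). Kdm3a, which removes mono- and dimethyl groups from H3K9, had 9.83, 9.87 and 9.84 in CBS-KO, against 10.54, 10.52 and 10.49 in WT. The arrays of each group lay close together and the groups did not overlap (difference -0.67, SE 0.09, 95% confidence interval -0.90 to -0.44, limma adjusted p = 0.0152). Kdm3a had the smallest p of the members, and it stayed called in more of the runs that left out 1 array than any other. Kdm4c, a demethylase of tri- and dimethylated H3K9 and H3K36, had 9.46, 9.61 and 9.43 in CBS-KO, against 10.03, 9.96 and 9.96 in WT. All CBS-KO arrays were below all WT arrays (-0.49, SE 0.11, adjusted p = 0.043). Kdm7a, which acts on H3K9 and H3K27, had 11.10, 11.35 and 10.98 in CBS-KO, against 11.64, 11.62 and 11.64 in WT (-0.49, SE 0.11, limma adjusted p = 0.0463). Kdm7a lost this call in 12 of 20 alternative settings. Its second probe set gave nearly the same difference, -0.50, without passing the threshold (limma adjusted p = 0.0725). The other 3 tested, Kdm4b, Kdm4a and Kdm3b, differed by -0.32, -0.23 and -0.19 and did not pass (adjusted p = 0.186, 0.193 and 0.357). Without CBS-KO 3, Kdm4c and Kdm7a had adjusted p of 0.0742 and 0.0739.

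Of the H3K4 demethylases of the Kdm5 family, which remove a mark of active promoters, 1 of 3 was lower, and for all 3 tested the groups did not overlap (median difference -0.43). Kdm5a, first known as a partner of the retinoblastoma protein, had 9.98, 10.13 and 9.83 in CBS-KO, against 10.59, 10.56 and 10.64 in WT. The lowest WT array lay above the highest CBS-KO array (-0.62, SE 0.11, 95% confidence interval -0.89 to -0.34, limma adjusted p = 0.0283). Kdm5b, chosen here after its values were seen, had 10.10, 9.99 and 10.05 in CBS-KO, against 10.48, 10.38 and 10.58 in WT (-0.43, adjusted p = 0.0506). It missed the threshold and passed it without CBS-KO 2 (limma adjusted p = 0.0285), in a run that called 30.8% of all tested probe sets. In every other run that left out 1 array Kdm5b missed it.

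Kdm5c and Kdm6a lie on the X chromosome and are known in the mouse to be expressed from both X chromosomes of females. Kdm6a, an H3K27 demethylase, had 10.11, 9.99 and 10.66 in CBS-KO, against 10.95, 10.95 and 10.93 in WT. The arrays with Y-linked signal, CBS-KO 1 and 2, were lowest, and CBS-KO 3 lay between them and WT (-0.69, SE 0.18, 95% confidence interval -1.13 to -0.26, limma adjusted p = 0.0582). Kdm5c had 10.37, 10.18 and 10.63 in CBS-KO, against 10.78, 10.74 and 10.82 in WT, in the same order of arrays (-0.38, SE 0.14, adjusted p = 0.113). With a term for Y-linked signal the difference rests on CBS-KO 3 alone, and it was -0.29 for Kdm6a (adjusted p = 0.149) and -0.14 for Kdm5c (adjusted p = 0.496). Without CBS-KO 3, where CBS-KO arrays with Y-linked signal are set against WT arrays without it, the difference of Kdm6a was -0.90 (adjusted p = 0.0121) and genotype and Y-linked signal cannot be told apart. Kdm6b, the other H3K27 demethylase and named after its values were seen, is autosomal and had 10.27, 10.70 and 9.98 in CBS-KO, against 10.60, 10.60 and 10.48 in WT, where the groups overlapped (-0.25, adjusted p = 0.418).

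**Figure D2:**
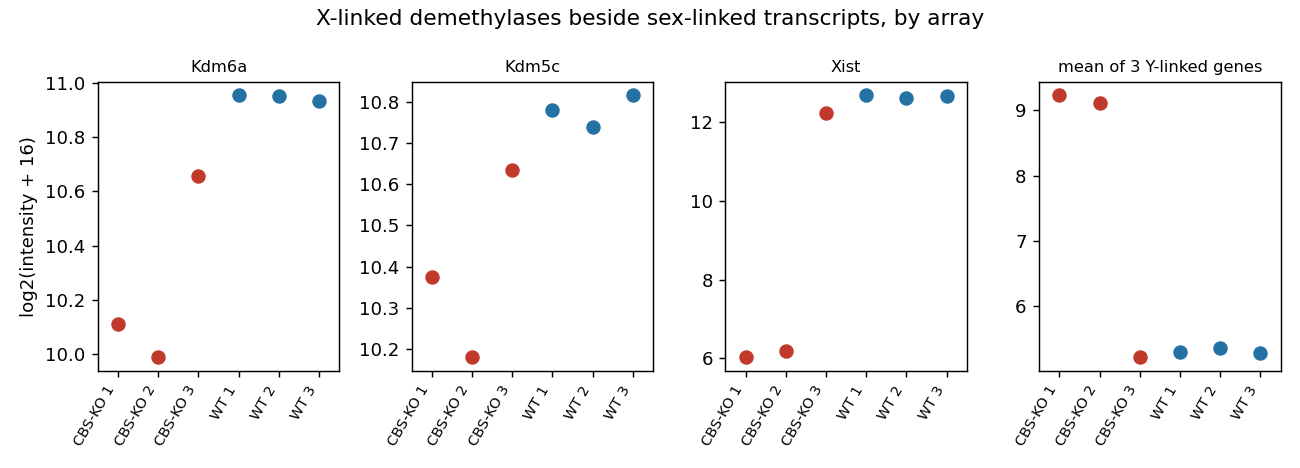
Log2(intensity + 16) of Kdm6a, Kdm5c, Xist and the mean of 3 Y-linked genes on each array, 1 point per array, CBS-KO (red) left of WT (blue). For both demethylases CBS-KO 1 and 2 lie lowest and CBS-KO 3 (10.66 and 10.63) lies between them and the WT arrays.

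In the remaining classes of demethylases 0 of 5 were called, and 2 were lower at an unadjusted p under 0.05. Kdm1b, an FAD-dependent demethylase of H3K4, had 8.92, 9.003 and 8.86 in CBS-KO, against 9.21, 9.19 and 9.28 in WT, with no overlap (-0.30, SE 0.11, limma adjusted p = 0.134). Kdm2a, a JmjC enzyme for H3K36 that binds CpG islands, had 10.72, 10.72 and 10.48 in CBS-KO, against 10.94, 10.89 and 10.92 in WT, again without overlap (-0.28, SE 0.11, adjusted p = 0.132). Neither passed the test. The other members of these classes, Kdm1a, Kdm2b and Kdm8, differed by -0.17, -0.11 and 0.00298.

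Lysine methyltransferases and related proteins went both ways, with 2 of 30 tested called higher and 2 lower, 11 positive and 19 negative differences, and a median of -0.13. Over all genes 6.62% were called higher and 4.45% lower, so the calls of this class lay near the shares among all genes. The enzymes of H4K20 included calls in both directions. Kmt5a, which places the first methyl group on H4K20 and is known to act in mitosis, had 11.55, 11.24 and 11.77 in CBS-KO, against 10.83, 10.55 and 10.78 in WT. All 3 CBS-KO arrays were higher (0.80, SE 0.16, 95% confidence interval 0.43 to 1.17, limma adjusted p = 0.0324). Kmt5b, which adds the further methyl groups, had 9.49, 9.75 and 9.41 in CBS-KO, against 10.42, 10.42 and 10.32 in WT. That difference of -0.84 was the most negative of all members (SE 0.13, 95% confidence interval -1.14 to -0.53, adjusted p = 0.0179). Kmt5c, a close relative of Kmt5b, pointed the other way with 10.63, 10.29 and 10.82 in CBS-KO, against 9.95, 9.79 and 10.10 in WT. Its groups did not overlap, but it missed the threshold (0.63, SE 0.17, 95% confidence interval 0.24 to 1.03, adjusted p = 0.0583). The difference between the genes of this class was not itself tested.

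Among 10 tested methyltransferases listed for H3K4, 1 was higher and 0 lower, with 8 negative differences (median -0.32). Smyd2, a MYND domain enzyme also known to methylate H3K36 and p53, had 10.08, 9.38 and 10.59 in CBS-KO, against 8.79, 8.49 and 8.70 in WT. This was the largest difference of any tested member, and also one with a wide spread among the CBS-KO arrays (1.35, SE 0.30, 95% confidence interval 0.64 to 2.07, limma adjusted p = 0.041). Setd7, which monomethylates H3K4, had 9.98, 10.03 and 9.59 in CBS-KO, against 10.48, 10.40 and 10.36 in WT (-0.55, SE 0.14, adjusted p = 0.0594). Kmt2c, an enhancer enzyme of the MLL family, had 10.69, 10.95 and 10.37 in CBS-KO, against 11.15, 11.23 and 11.19 in WT (-0.53, SE 0.16, adjusted p = 0.0747). For both, all CBS-KO arrays were lower without passing the test. Kmt2a, Kmt2b, Kmt2d and Kmt2e, the other members of that family measured, differed by -0.50, -0.18, -0.51 and -0.32, with adjusted p from 0.161 to 0.399. Setd1b, Setd1a and Smyd3 differed by -0.32, 0.24 and -0.02 and did not pass.

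Of 4 methyltransferases of H3K36, a mark of transcribed gene bodies, 1 was lower and 0 higher. Nsd1, which dimethylates H3K36, had 10.94, 10.95 and 10.85 in CBS-KO, against 11.24, 11.31 and 11.40 in WT, with no overlap (-0.40, SE 0.09, 95% confidence interval -0.61 to -0.18, limma adjusted p = 0.0449). Nsd1 lost this call in 11 of 19 alternative settings. Its relative Nsd2 had 9.86, 9.11 and 10.31 in CBS-KO, against 8.86, 8.83 and 9.20 in WT. CBS-KO 2 lay within the WT range, so the groups overlapped (0.80, SE 0.30, 95% confidence interval 0.07 to 1.52, adjusted p = 0.133). Nsd3 differed by -0.45 (adjusted p = 0.0769). Setd2, the enzyme that trimethylates H3K36, read 11.03 on all 3 CBS-KO arrays, against 11.17, 11.23 and 11.11 in WT (-0.14, limma adjusted p = 0.31). Its second, dimmer probe set had -0.38 (adjusted p = 0.05001, just over the threshold), so the size for Setd2 depends on the probe set.

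None of the 7 tested methyltransferases of H3K27, H3K79 or H3K9 passed limma's test after adjustment, and 1 was higher and 2 lower at an unadjusted p under 0.05. The catalytic subunits of Polycomb complex PRC2 pointed in opposite directions. Ezh1, the form of resting cells, had 10.43, 10.65 and 10.12 in CBS-KO, against 10.93, 10.92 and 10.72 in WT (-0.46, SE 0.16, 95% confidence interval -0.83 to -0.08, limma adjusted p = 0.104). Ezh2, the form of dividing cells and named after its values were seen, had 11.67, 10.97 and 11.85 in CBS-KO, against 10.82, 10.80 and 11.11 in WT (0.59, SE 0.23, 95% confidence interval 0.03 to 1.14, adjusted p = 0.146). CBS-KO 2 lay within the WT range for Ezh2. Without that array Ezh2 passed (limma adjusted p = 0.00746), in a run that called 30.8% of all tested probe sets. In every other run that left out 1 array Ezh2 missed the threshold. Dot1l, the H3K79 enzyme, had 10.64, 10.43 and 10.70 in CBS-KO, against 10.37, 10.29 and 10.39 in WT (0.24, SE 0.11, 95% confidence interval -0.03 to 0.51, adjusted p = 0.204). Among H3K9 methyltransferases the 4 tested differed by -0.34 to 0.12, and Setdb2, which had the smallest p of them, had 8.35, 8.26 and 8.31 in CBS-KO, against 8.79, 8.59 and 8.55 in WT (-0.34, SE 0.12, adjusted p = 0.119). The others, Ehmt2, Ehmt1 and Setdb1, differed by -0.11, -0.03 and 0.12. Of the 6 other SET and MYND domain proteins 0 were called, and 0 passed an unadjusted p of 0.05. Smyd5, known to act on H4K20 and H3K36, had 10.26, 9.75 and 10.66 in CBS-KO, against 9.62, 9.41 and 9.90 in WT (0.58, SE 0.25, adjusted p = 0.171). Setd6, Setd3, Setd5, Setd4 and Smyd4 differed by 0.13, 0.13, -0.13, -0.17 and -0.25.

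Arginine methyltransferases had 1 of 8 tested called higher and 0 lower, with 4 differences in each direction and a median of 0.18. Over all genes 6.62% were called higher and 4.45% lower. Carm1, the coactivator that methylates H3R17 and H3R26, had 11.93, 11.47 and 11.999 in CBS-KO, against 11.17, 11.06 and 10.995 in WT. The lowest CBS-KO array was above the highest WT array (0.72, SE 0.15, 95% confidence interval 0.36 to 1.09, limma adjusted p = 0.038). Prmt7, which only monomethylates arginine, had 10.20, 9.74 and 10.53 in CBS-KO, against 9.38, 9.27 and 9.45 in WT (0.79, SE 0.21, 95% confidence interval 0.30 to 1.29, adjusted p = 0.0579). Prmt5, the main source of symmetric dimethylarginine and named after its values were seen, had 12.22, 11.999 and 12.45 in CBS-KO, against 11.82, 11.70 and 11.70 in WT (0.48, SE 0.12, 95% confidence interval 0.19 to 0.78, adjusted p = 0.0563). Both lay wholly above WT and missed the threshold. Without CBS-KO 2 both passed it (limma adjusted p = 0.00558 for Prmt7 and 0.00898 for Prmt5), in a run that called 30.8% of all tested probe sets. In every other run that left out 1 array both missed it. Prmt1, the main source of asymmetric dimethylarginine, differed by 0.43 with overlap (adjusted p = 0.27). Prmt2, Prmt9, Prmt6 and Prmt3 differed by -0.44, -0.25, -0.21 and -0.07, and none passed.

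**Figure D3:**
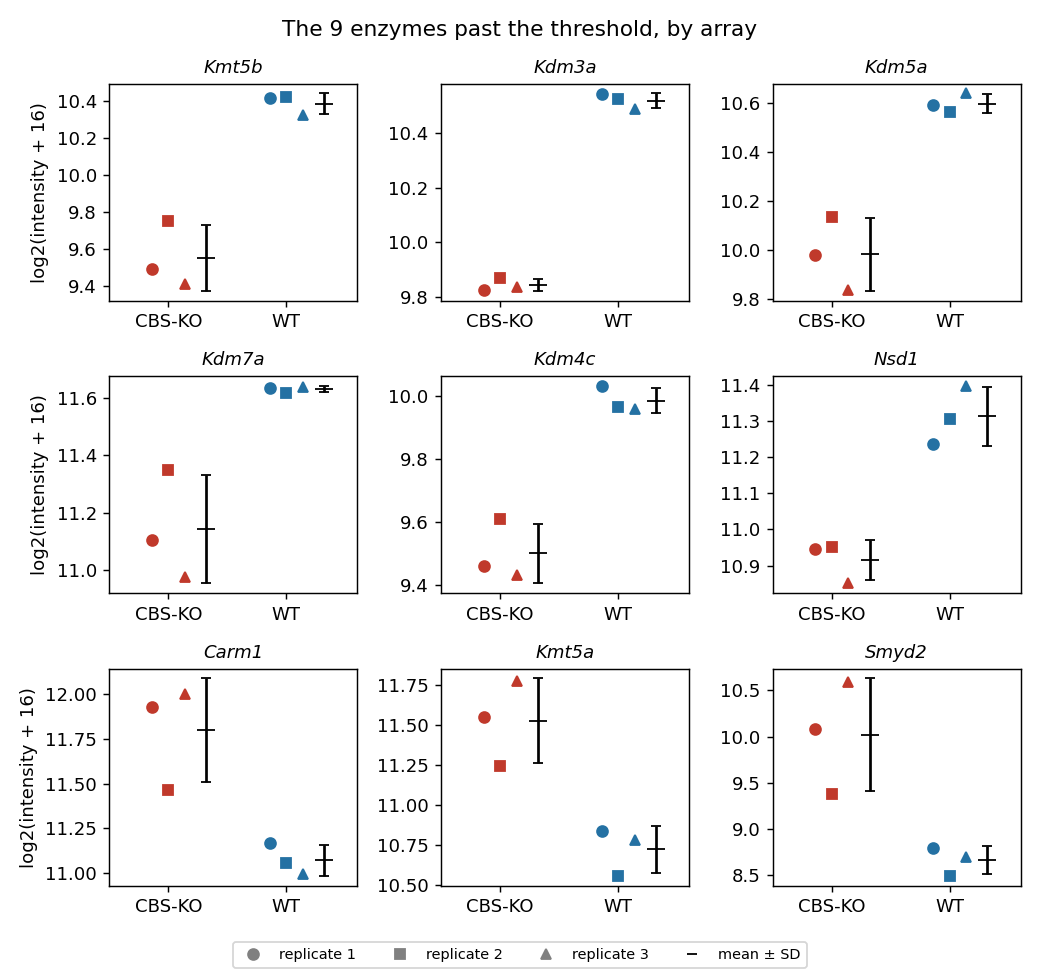
Log2(intensity + 16) of the 9 called members on each array, CBS-KO left of WT, 1 point per array, beside the mean and SD of each group. For every gene the 3 CBS-KO points lie wholly above (Smyd2, Kmt5a, Carm1) or wholly below the 3 WT points, and CBS-KO 2 lies nearest to WT for Smyd2 (9.38).

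The 3 CBS-KO arrays kept a fixed order for many members. All 16 members with a positive difference had CBS-KO 3 highest, CBS-KO 1 next and CBS-KO 2 lowest, an order that 58.9% of 6128 genes with a positive difference had. Of 38 members with a negative difference 21 (55.3%) had the reverse order, against 43.7% of 6647 such genes. These members share their arrays, so the order is a description with no test. Marker lists differed between the same arrays. Relative to the WT mean, proliferation markers stood at 1.66, 0.57 and 2.01 in CBS-KO 1, 2 and 3, and erythroid markers stood at 3.41, 2.35 and 3.75, in the order of the positive members. CD4 T cell markers stood at -0.64, -0.35 and -1.04, neutrophil markers at 3.48, 3.16 and 3.16, and monocyte and macrophage markers at 1.91, 2.53 and 2.05. B cell markers stood at -0.47, 0.80 and -1.06 and CD8 T cell markers at -0.37, 0.97 and -0.44. Both were highest in CBS-KO 2 and lowest in CBS-KO 3, the order of 21 negative members, as were the CD4 T cell markers. NK cell markers stood at 0.80, 0.63 and 0.03, and platelet markers at 0.74, 0.13 and 0.77. All 18 proliferation markers tested had a positive difference (median 1.44, 8 called). The part of proliferating cells or of these other cell types in the values of the enzymes was not tested.

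**Figure D4:**
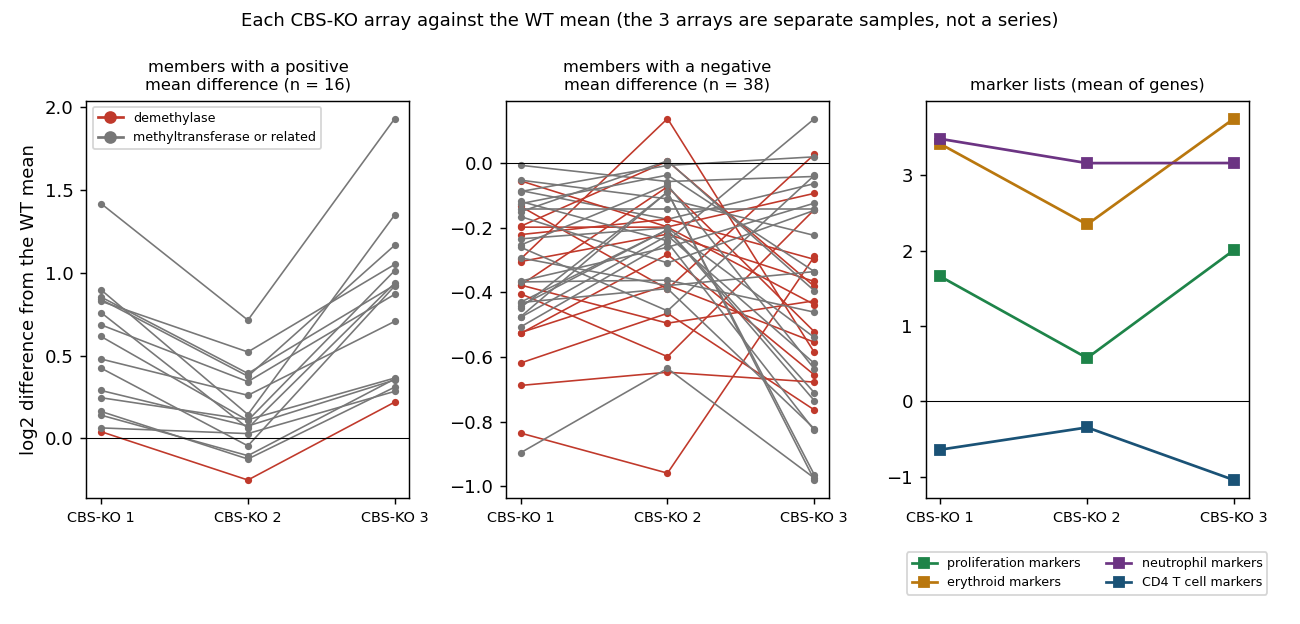
Each CBS-KO array's difference from the WT mean, in log2(intensity + 16), for the 16 members with a positive and the 38 with a negative mean difference, beside the same for 4 marker lists. Lines join values of 1 gene or list and do not stand for a series. Members with a positive difference lie highest in CBS-KO 3 and lowest in CBS-KO 2 in 16 of 16 cases.

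Below the filter were 4 members, which have values and no test. Suv39h2, an H3K9 methyltransferase, had 7.80, 6.85 and 8.12 in CBS-KO, against 6.19, 6.23 and 6.29 in WT, with all CBS-KO arrays higher. Its mean stayed under the filter because its WT level was low, and in the fit without a filter its difference of 1.35 had an adjusted p of 0.0742 (limma, SE 0.31). Kdm4d, an H3K9 demethylase, had 6.81, 6.78 and 6.80 in CBS-KO, against 6.99, 6.996 and 6.93 in WT. Smyd1, a muscle enzyme, and Prmt8, a brain enzyme, lay between 5.56 and 6.67 on all arrays. Of the 5 members with a second probe set (Kdm7a, Kmt2d, Setd1b, Setd2 and Setd3), 4 had the same sign in both, and Setd3 had 0.13 and -0.01. Values were tied on at least 2 arrays for 8 members.

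Few partners of the enzymes passed the test, which 11.1% of all genes passed. Of 9 PRC2 partners, 11 COMPASS and MLL partners, 7 partners and readers of H3K9 methylation, 5 partners of arginine methyltransferases and 6 of DOT1L, 0 were called in either direction at a limma adjusted p under 0.05, and the medians of these lists lay between -0.13 and 0.16. At an unadjusted p under 0.05, 3 COMPASS and MLL partners and 2 genes of the H3K9 list were higher, and 1 gene each of the PRC2, H3K9, arginine and DOT1L lists was lower. Over all genes 17.1% were higher and 16.3% lower by that measure. The gap between these short lists and all genes was not tested. Of 8 partners of LSD1 (Kdm1a) 1 was higher and 1 lower. Gfi1b, a transcriptional repressor that acts in the erythroid and megakaryocyte lineages, had 12.46, 11.52 and 12.55 in CBS-KO, against 9.38, 8.85 and 9.77 in WT (2.84, SE 0.34, limma adjusted p = 0.0107). Erythroid markers were higher on the same arrays, and their part in the value of Gfi1b was not tested. Zmym2, a zinc finger protein of the LSD1 complex, had 11.07, 11.04 and 10.96 in CBS-KO, against 11.63, 11.62 and 11.46 in WT (-0.55, SE 0.09, adjusted p = 0.0225). Of 11 tested enzymes whose names fall outside the rule, 1 was lower and 0 higher, with 9 negative differences (median -0.22). Prdm2, an H3K9 methyltransferase, had 10.14, 10.33 and 9.86 in CBS-KO, against 10.74, 10.70 and 10.65 in WT (-0.59, SE 0.14, limma adjusted p = 0.0487).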

How the data were processed

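Total RNA of CD4+ T cells was labelled with biotin, per the labels' protocols, and hybridised to 6 arrays. The authors deposited 1 linear intensity per probe set and array; how they were background-corrected, normalized and summarised is not stated in the labels or the file. From these intensities log2(intensity + 16) was computed. Of 34760 probe sets, 21640 named 1 gene, 1321 several and 11799 none; 21553 Entrez identifiers matched RefSeq and changed 0 symbols. Probe sets with a mean above the 40th percentile were tested (20856).

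Groups were compared with limma 3.58.1 in R 4.3.3 (lmFit, eBayes with a trend, two-sided, Benjamini-Hochberg over all tested probe sets, threshold 0.05). Tables and figures were made in Python 3.11.15 with matplotlib 3.10.9 and pandas 2.3.3. The members, lists and tests were chosen with earlier results of these data known. The rule for members named with full values took every called member, the 6 largest positive and negative differences, the smallest p in each class, and the X-linked members; others are said to be chosen after their values were seen, given in a sentence of differences, or named as untested, tied or with several probe sets. Alternatives were other normalizations, filters, offsets and variance models, array weights, the replicate number as a block, a Y-linked term, a plain test per probe set, averaging of a gene's probe sets, each array left out, and, added after the data were seen, 1 probe set per gene. With 3 arrays per group their number limits the precision, and an exact permutation test of 1 value could not go below p = 0.1.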

Additional observations from a re-analysis of the deposited data

Results flagged for a closer look

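Kdm5d, the Y-linked H3K4 demethylase left out of the members by the rule, had signal on CBS-KO 1 and 2, which are among the arrays compared. It read 8.67 in CBS-KO 1, 8.84 in CBS-KO 2 and 5.52 in CBS-KO 3, against 5.73, 5.84 and 5.69 in WT. CBS-KO 1 and 2 thus stood above the WT level, as did the mean of the Y-linked list on the same arrays (9.23, 9.12 and 5.22 in CBS-KO, against 5.30, 5.35 and 5.29 in WT).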

How the results depend on the processing

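Of the 54 members, 3 were called higher and 6 lower, with 1995 calls over all tested probe sets. The members called higher and lower numbered 0 and 3 with no filter (1126 in all), 14 and 32 with array weights (13534 in all, from a fit that did not converge and gave CBS-KO 1 a weight of 147), 9 and 15 with a term for Y-linked signal (4976 in all, resting on CBS-KO 3), and 0 and 1 with a plain test per probe set (74 in all). Quantile normalization gave 6 higher, and 1 probe set per gene, added after the data were seen, also gave 6. Leaving out 1 array gave 0 to 11 higher, 0 to 17 lower and 73 to 6427 in all. With the replicate block 5 were higher and 2 lower (2093 in all); arrays with the same number correlated at 0.063, 0.158 and 0.108 in their deviations, which does not show them to be paired. A common array median, the 60th percentile, offsets of 1 and 64, the other variance models and the mean of probe sets moved the counts by at most 1.5 times. Signs turned for 5 members near 0: Kdm8 (-0.0317 with quantile normalization; -0.105 to 0.130 leaving out 1 array), Smyd3 (0.00877 with a common median, 0.0200 with the Y-linked term; -0.0684 to 0.0627), Ehmt1 (0.0180 with array weights; -0.0626 to 0.0140), Prmt3 (0.138 with the Y-linked term; -0.179 to 0.00986) and Kdm1a (0.0276 with the Y-linked term). The causes of these shifts were not tested. The number of arrays, 3 per group, limits precision; signal over background is not given.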
